A study of Mus musculus with 6 samples.

Results

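The E proteins *Tcf3* (encoding E2A), *Tcf4* (E2-2) and *Tcf12* (HEB) and their inhibitors *Id1*, *Id2* and *Id3* were followed in activated splenic B cells with and without the aryl hydrocarbon receptor (AHR), a ligand-activated transcription factor. These 6 genes were taken by symbol from a table of 23420 genes, and all 6 passed the minimum count that left 13682 genes for testing. B cells were purified from the spleens of C57Bl/6J Ahr+/+ mice and of Ahr-/- mice, 3 of each, used after 8 weeks of age. Cells of both genotypes were cultured for 8 h with anti-IgM (10 µg/ml) and IL-4 (20 ng/ml), and FICZ, an AHR ligand, was present at 250 nM in the last 4 h. The Ahr-/- mice are the line B6.129-Ahr tm1Bra/J, which carries its allele in every cell of the body, so the loss is not restricted to B cells. Both genotypes received FICZ, and no library without it was part of the comparison.

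E proteins are basic helix-loop-helix factors that bind DNA as dimers at the E-box motif, and they drive the B cell programme from commitment through to antibody gene diversification. ID proteins keep the helix-loop-helix domain but lack the basic region that contacts DNA, so an E protein paired with an ID protein cannot bind. The balance of both families therefore sets E protein activity, and *Id3* is known in lymphocytes as a gene that responds to antigen receptor signals.

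*Id3* and *Tcf4* transcripts were lower in Ahr-/- B cells, *Id2* transcripts were higher, and *Tcf3*, *Tcf12* and *Id1* did not pass the test. With edgeR's quasi-likelihood test at a Benjamini-Hochberg adjusted p under 0.05, 3 of the 6 genes were called, against 17.9% of all genes tested. Of these, 2 were lower (background 8.13%) and 1 was higher (background 9.79%). The 3 libraries of one genotype did not overlap with those of the other for 4 of the 6 genes, against 33.5% of all genes. With 3 mice per genotype, the exact permutation test cannot go below 0.1. In bulk RNA, fewer cells that express a gene and less RNA per cell cannot be told apart.

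The libraries held between 22095096 and 53648787 counts, and every pair of the same genotype differed less, by chi-square per degree of freedom, than any pair across genotypes. *Cyp1a1*, the best known AHR target, fell from 5246 ± 242 to 5.36 ± 2.20 normalized counts (mean ± SD, n = 3). *Ahr* transcripts were still counted in Ahr-/- cells, at 9174 ± 472 against 13175 ± 682, a log2 fold change of -0.52 (edgeR adjusted p = 7.06e-06). The B cell identity of the libraries was plain from *Cd79a*, *Cd79b* and *Ms4a1*, whose means were 9894 normalized counts or more in both genotypes.

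Among the E proteins, *Tcf4* was the one that changed. Its normalized counts were 7209, 7533 and 7869 in Ahr+/+ cells against 4419, 4798 and 4824 in Ahr-/- cells, so the genotypes were well separated. The mean fell from 7537 ± 330 to 4680 ± 226, which is 1.61-fold lower (log2 fold change -0.68, SE 0.0463, 95% interval -0.79 to -0.58, edgeR adjusted p = 5.3e-07). *Tcf4* stood at rank 112 of the genes tested by p.

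*Tcf3*, whose products E12 and E47 are the main E proteins of B cells, read 5490, 5914 and 5630 in Ahr+/+ and 5949, 6150 and 6411 in Ahr-/- cells. Each Ahr-/- library was above each Ahr+/+ library, although the nearest values differed by little. The difference was small (log2 fold change 0.12, SE 0.0426, 95% interval 0.03 to 0.21) and missed the threshold (edgeR adjusted p = 0.073). It passed without scaling beyond library size (0.15, adjusted p = 0.029) and without Ahr+/+ replicate 2 (0.15, adjusted p = 0.043), within a range of 0.029 to 0.23 over 12 alternatives.

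*Tcf12* was nearly level, at 5711, 5571 and 5785 in Ahr+/+ and 5858, 5659 and 5842 in Ahr-/- cells, and the genotypes overlapped. Its 95% interval of -0.06 to 0.10 on the log2 scale leaves out a change of the size measured for *Tcf4* (edgeR adjusted p = 0.72).

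Among the inhibitors, *Id3* showed the widest separation of all 6 genes. Normalized counts were 1206, 1299 and 1164 with the receptor and 419, 429 and 459 without it. The highest Ahr-/- value was thus well under the lowest Ahr+/+ value. *Id3* fell from 1223 ± 69.2 to 436 ± 20.6, which is 2.80-fold lower (log2 fold change -1.48, SE 0.0622, 95% interval -1.62 to -1.35, edgeR adjusted p = 4.8e-09), at rank 46 by p.

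*Id2*, the ID gene best known for its part in innate lymphoid, NK and dendritic cell development, moved the other way. Its values were 686, 719 and 663 in Ahr+/+ and 872, 832 and 787 in Ahr-/- cells, again without overlap. The rise from 689 ± 28.5 to 830 ± 42.5 was 1.20-fold (log2 fold change 0.26, SE 0.0594, 95% interval 0.13 to 0.39, edgeR adjusted p = 0.0082). The adjusted p stayed between 0.004 and 0.044 over 12 alternatives.

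*Id1* was detected in each library but low, with 24, 24 and 25 raw counts in Ahr+/+ and 13, 27 and 28 in Ahr-/- libraries. The genotypes overlapped, and the 95% interval of its log2 fold change ran from -0.72 to 0.37 (edgeR adjusted p = 0.70), so a change of the size of that of *Id2* could not be seen at this depth. *Id4*, the remaining ID gene, had 0 counts in all 6 libraries. A count of 0 allows up to 3 counts, which is 0.0555 to 0.134 CPM (raw counts scaled by the TMM effective library size) depending on the library.

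**Figure D1:**
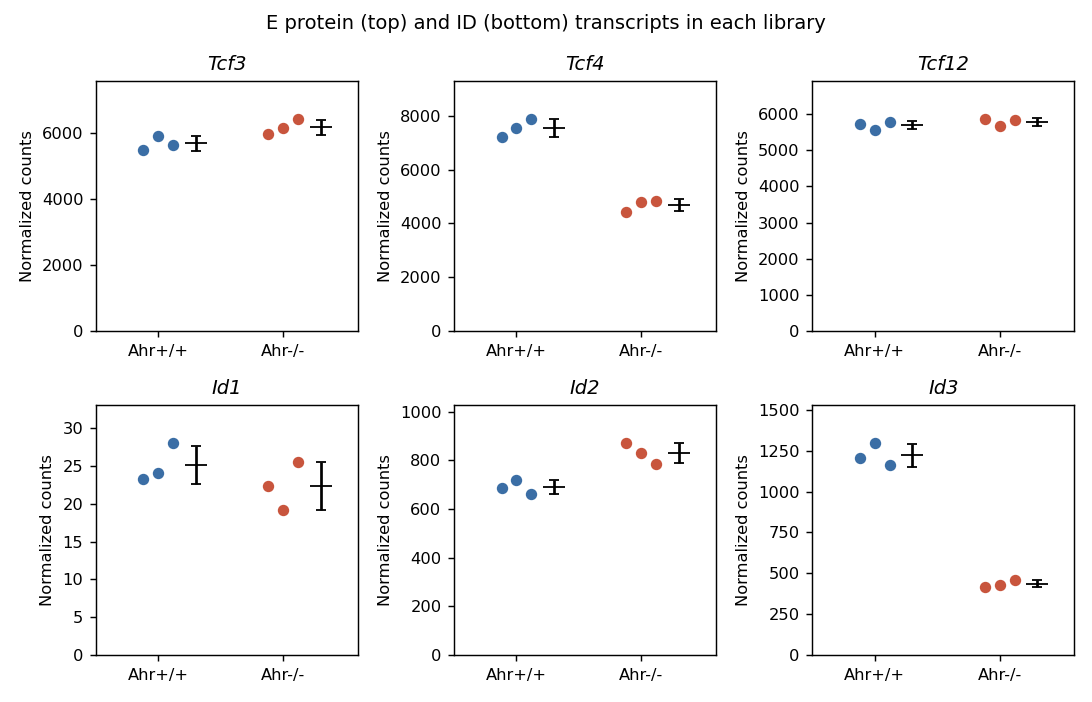
Normalized counts (vertical axes, from 0) of the 3 E protein and 3 ID genes in each library by genotype, with the mean and SD beside the points (n = 3). The *Id3* points sit between 1164 and 1299 in Ahr+/+ and between 419 and 459 in Ahr-/- cells, while the *Tcf12* and *Id1* points of the genotypes overlap.

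**Figure D2:**
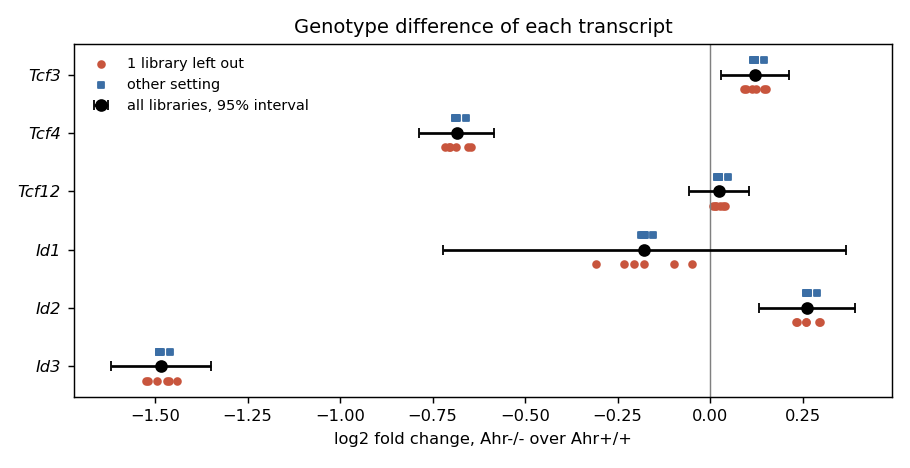
Log2 fold change of each gene (horizontal axis, Ahr-/- over Ahr+/+), with black points for the fit on all libraries and bars for its 95% interval, red points for fits with 1 library left out and blue squares for other settings. *Id3* stayed between -1.53 and -1.44 and *Tcf4* between -0.72 and -0.65 when libraries were left out.

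To compare levels between genes, CPM were divided by the length of each gene's longest coding transcript in kilobases. In Ahr+/+ cells, *Tcf3* was highest at 48.5 to 52.2 CPM per kilobase. *Id3* (23.7 to 26.4), *Tcf12* (23.0 to 24.0) and *Tcf4* (21.9 to 23.9) followed with ranges that overlapped from one to the next. *Id2* came below at 8.74 to 9.50 and *Id1* last at 0.522 to 0.629.

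In Ahr-/- cells the order of the levels per kilobase was different. *Tcf3* (52.5 to 56.6) and *Tcf12* (23.3 to 24.1) were followed by *Tcf4* at 13.4 to 14.7. *Id2* at 10.4 to 11.5 now lay above *Id3* at 8.53 to 9.31, *Id1* was last at 0.43 to 0.572, and no range overlapped with its neighbour.

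Within the summed ID level per kilobase, *Id3* made up 71.6 to 72.5% in Ahr+/+ and 41.5 to 46.0% in Ahr-/- libraries. The *Id2* share was 26.0 to 26.5% in Ahr+/+ and 51.2 to 56.1% in Ahr-/- libraries. *Id2* was therefore the main ID transcript by this measure in Ahr-/- cells and *Id3* in Ahr+/+ cells. With all annotated exons of a gene as its length, an alternative chosen after seeing the data, *Id3* made up 46.5 to 51.0% and *Id2* 45.9 to 50.8% in Ahr-/- libraries, and the lead of *Id2* was lost in 1 of them.

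Within the summed E protein level, the *Tcf4* share was 23.3 to 24.5% in Ahr+/+ and 14.9 to 15.8% in Ahr-/- libraries. *Tcf3* made up 51.0 to 53.2% and 58.3 to 59.3%, respectively. The *Tcf12* shares, 23.5 to 25.1% and 25.3 to 26.9%, lay close together. With all annotated exons as the length, *Tcf4* made up 17.4 to 18.4% and 10.8 to 11.5%. With no length it made up 39.2 to 40.8% and 27.2 to 28.9%, and was then above *Tcf3* in Ahr+/+ (29.2 to 31.1%) but below it in Ahr-/- libraries (36.7 to 37.5%).

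The summed ID level was 36.4%, 37.2% and 33.9% of the summed E protein level in Ahr+/+ cells against 22.8%, 21.9% and 21.3% in Ahr-/- cells. The ratio was thus lower in each Ahr-/- library, with means of 35.8 ± 1.70% and 22.0 ± 0.76% and a quotient of 0.614. As sums of transcripts, these values say nothing of protein amounts. The quotient was 0.564 with all annotated exons as the length and 0.756 with no length. *Tcf4* has 24 annotated coding transcripts of 1810 to 8577 bases, and which of them the cells used was not tested.

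**Figure D3:**
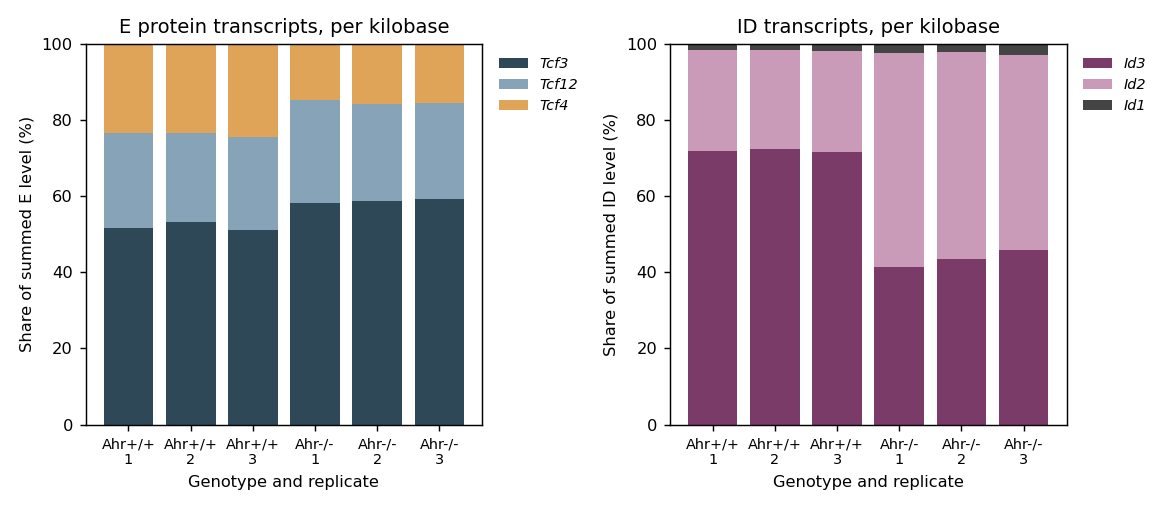
Share (%) of each E protein gene in the summed E protein level (left) and of each ID gene in the summed ID level (right), per kilobase of the longest coding transcript, with 1 bar for each library. The *Id3* share was 71.6 to 72.5% in Ahr+/+ and 41.5 to 46.0% in Ahr-/- libraries, and the *Tcf4* share 23.3 to 24.5% and 14.9 to 15.8%.

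Genes whose pattern over the 6 libraries lay nearest to each called gene were found by the root mean square (RMS) difference of centred log2 CPM among 10550 genes. Nearest to *Tcf4* were *Prkcb*, the protein kinase C beta of antigen receptor signalling (RMS 0.0337), *Ctsa* (0.0399) and *Ndrg1* (0.0438). Nearest to *Id3* were *Ncf4*, a subunit of the phagocyte oxidase (0.0655), *Runx1*, a haematopoietic transcription factor (0.0743), and *Jak2*, a cytokine receptor kinase (0.0957). Among the nearest to *Id2* were *Kif3c* (0.0227) and *Tpst1* (0.0302). For genes that differ by genotype, a small RMS mostly reflects a like log2 fold change. In the order named, these were -0.65, -0.71 and -0.65 for the *Tcf4* neighbours and -1.59, -1.59 and -1.46 for those of *Id3*. Those named for *Id2* had 0.29 and 0.245. Shared control was not tested.

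Promoters were searched because AHR with its partner ARNT binds the core GCGTG. The RefSeq sequences of build GRCm38.p6 cover 250 bases before to 50 after a start. Searched on both strands were 6 start sites of 4 of these genes (*Tcf3*, *Tcf12*, *Id2* and *Id3*). *Tcf4*, which also fell, and *Id1* were not part of this search. GCGTG was found at 3 of the 6 starts, against 32.4% of 32851 mouse promoters. The windows of 30 bases around each match are shown 5′ to 3′ on the strand of the gene, with the core in capitals.
Id3, chr4:136143802-136143831, plus strand: cggccgctgcagGCGTGcgcgcactgtttg
Tcf12, chr9:72111287-72111316, minus strand: gggcgcggacgcGCGTGgggcgctctcaac
Tcf3, chr10:80433679-80433708, minus strand: tggcgacagtggGCGTGgtcacttgggggc
Tcf3, chr10:80433663-80433692, minus strand: ggtcacttggggGCGTGgcttccgcgggcg

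The *Id3* core begins 8 bases before the start, that of *Tcf12* 103 bases before and those of *Tcf3* 61 and 45 bases before. The core was found at the single start of *Id3*, which fell, at the single start of *Tcf3* and 1 of the 3 starts of *Tcf12*, both genes that did not pass the test, and not in the window of *Id2*. The EGR motif GCGTGGGCG, which contains the AHR core, was found at none of the starts and in 0.612% of all promoters. The E-box CANNTG was found at 5 of the 6 starts, that of *Id3* excepted, and in 72.3% of all promoters. A match describes letters and not binding, and no binding was measured in these libraries.

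*Id2* lies on chromosome 12 (25093799 to 25096092, GRCm38.p6), 10.4 Mb from *Ahr* (35497979 to 35534989), where sequence linked to the targeted allele may still be of 129 origin. Of the other tested genes 10 to 20 Mb from *Ahr*, 21 of 48 (43.8%) were called, and on the side of *Id2* 12 of 26 (46.2%). The shares were 18.9% within 10 Mb (10 of 53), 20.3% beyond 20 Mb on the same chromosome (73 of 359) and 17.8% on other chromosomes. Next to *Id2*, *Kidins220* at 30.6 kb had a log2 fold change of -0.06 (edgeR adjusted p = 0.497), while *Rnf144a* at 1210 kb fell by 1.26 (adjusted p = 1.11e-05). The part of linked sequence in the *Id2* difference was not tested. *Id3* lies on chromosome 4 (136143822 to 136145392). Of its 6 nearest tested genes edgeR called 0, against 17.9% of all genes. An unadjusted edgeR p under 0.05 was found for 2 of them, against 4020 of all 13682 tested genes. Among these neighbours, *E2f2* at 26.9 kb had a log2 fold change of -0.30 (edgeR adjusted p = 0.126). *Tcf3* lies on chromosome 10 (80409541 to 80433976), *Tcf12* on chromosome 9 (71844252 to 72111893) and *Id1* on chromosome 2 (152736251 to 152737410). Beside *Id1*, the survival gene *Bcl2l1* at 21.3 kb rose by 0.64 (adjusted p = 1.40e-06). Of the 6 nearest tested genes of *Tcf12*, 3 were called, *Aldh1a2* (log2 fold change 1.53), *Myzap* (0.65) and *Tex9* (-0.43). Of those of *Tcf4* edgeR called 0, with 0 at an unadjusted p under 0.05. Both counts stand against the same shares of all genes.

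**Figure D4:**
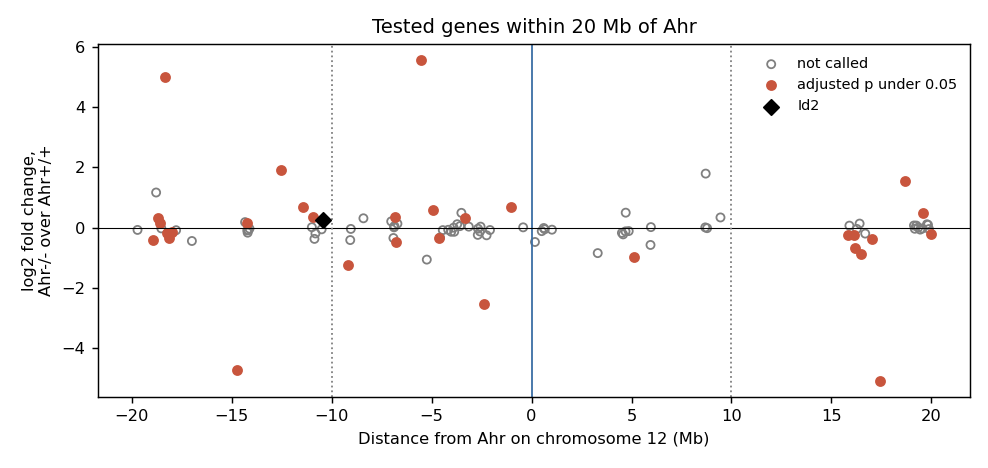
Log2 fold change (vertical axis, Ahr-/- over Ahr+/+) of each tested gene within 20 Mb of *Ahr* on chromosome 12 against its distance from *Ahr* in Mb, with filled points for genes at an adjusted p under 0.05 and dotted lines at 10 Mb. *Id2* (diamond) has a log2 fold change of 0.26 at 10.4 Mb, in the stretch where 12 of 26 other genes were called.

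Transcripts of proteins that work with E proteins were called in both directions. Of 13 tested partners and cofactors, 3 rose and 1 fell (30.8% called, against 17.9% of all genes), with a median log2 fold change of -0.04 beside 0.00 over all genes. *Lyl1*, a class II helix-loop-helix partner of E proteins, rose from 1376 ± 69.2 to 1992 ± 108 normalized counts (log2 fold change 0.54, edgeR adjusted p = 1.14e-05). *Cbfa2t3*, the co-repressor ETO2, rose from 351 ± 54.8 to 622 ± 49.4 (0.83, adjusted p = 1.01e-04). *Lmo2*, the LIM-only bridge of these complexes, fell from 2520 ± 16.5 to 1748 ± 71.7 (-0.53, adjusted p = 1.66e-06), while its relative *Lmo4* rose by 0.22 (adjusted p = 0.0177).

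Of the EGR factors, which link antigen receptor signals to *Id3* in thymocytes, *Egr2* read 20459, 20287 and 20923 in Ahr+/+ and 13317, 14611 and 16022 in Ahr-/- cells. *Egr3* read 5634, 6263 and 6026 in Ahr+/+ and 3436, 3632 and 4177 in Ahr-/- cells. Neither gene's genotypes overlapped, and the log2 fold changes were -0.49 for *Egr2* and -0.67 for *Egr3* (edgeR adjusted p = 4.25e-05 and 1.16e-05). *Egr1* had a log2 fold change of -0.25 and missed the threshold (adjusted p = 0.0599). These were the 2 called of the 6 genes of the group, which includes *Egr4* and the co-repressors *Nab1* and *Nab2* (33.3% called lower, against 8.13% of all genes), and the median was -0.37.

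BMP and TGF-beta signals are the classical inputs to ID genes, and the transcripts of their components were called in both directions. Of 26 tested ligands, receptors, SMADs and regulators, 4 rose and 4 fell (30.8% called, against 17.9% of all genes, median -0.03). Among ligands, *Tgfb1* fell by 0.58 on the log2 scale (edgeR adjusted p = 8.55e-07) and *Tgfb3* rose by 0.43 (adjusted p = 0.0468). Among receptors, *Tgfbr1* rose by 0.70 (adjusted p = 3.13e-06) and *Tgfbr2* by 0.31 (adjusted p = 7.85e-04). The low BMP receptor *Bmpr1a* fell from 29.2 ± 8.66 to 7.76 ± 2.01 normalized counts (adjusted p = 0.00245).

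Downstream of these receptors, the BMP-activated *Smad1* fell by 0.42 and *Smad5* by 0.14 (edgeR adjusted p = 0.0116 and 0.0447), and *Skil*, an inhibitor of SMAD signalling, rose by 0.37 (adjusted p = 5.64e-05). Without Ahr+/+ replicate 1, 5 genes of this group were called in place of 8. Of 8 genes for the turnover of E and ID proteins, such as the deubiquitinase *Usp1* and the ubiquitin ligase subunit *Skp2*, edgeR called 0 (against 17.9% of all genes). DESeq2 called 1. An unadjusted edgeR p under 0.05 was found for 2 of the 8, against 4020 of all 13682 tested genes.

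Known E protein targets in lymphocytes also moved in both directions. Of 22 tested, 9 rose and 4 fell (59.1% called, against 17.9% of all genes), with a median log2 fold change of 0.17. *Notch1*, a receptor of lymphocyte fate decisions, read 2189, 2494 and 2405 in Ahr+/+ against 1102, 1270 and 1244 in Ahr-/- cells. It fell from 2363 ± 157 to 1205 ± 90.3 (log2 fold change -0.96, edgeR adjusted p = 2.72e-07), and its genotypes did not overlap.

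*Ebf1*, an early B cell factor, fell by 0.24 and the adaptor *Blnk* by 0.19 on the log2 scale (edgeR adjusted p = 0.0218 and 0.012). *Pax5*, which keeps B cell identity, rose from 1354 ± 74.7 to 2118 ± 151 (0.65, adjusted p = 5.77e-06), and the chemokine receptor *Cxcr4* rose by 0.65 (adjusted p = 1.57e-04). The antigen receptor chain *Cd79b* rose by 0.35 (adjusted p = 5.90e-05) and the transcription factor *Irf8* by 0.34 (adjusted p = 2.22e-05). *Foxo1*, a further target, had a log2 fold change of 0.05 (adjusted p = 0.42), and *Rag1* and *Il7r* did not pass the test either.

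**Figure D5:**
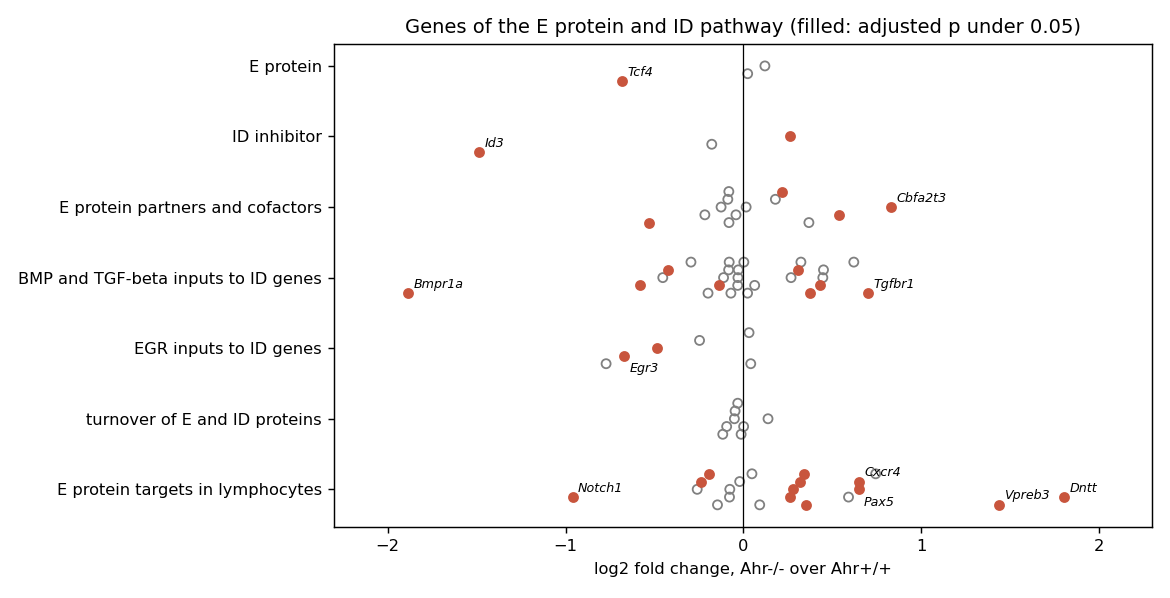
Log2 fold change (horizontal axis, Ahr-/- over Ahr+/+) of each tested gene of the pathway groups, with 1 point for each gene and filled points at an edgeR adjusted p under 0.05. Both directions occur among partners (3 higher, 1 lower), BMP and TGF-beta inputs (4 and 4) and targets (9 and 4, of which 1 lower gene lies beyond the left end of the axis).

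Markers of other spleen cells moved with genotype, and their part in the differences above was not tested. Plasmacytoid dendritic cells depend on *Tcf4*, and of 10 of their markers 7 rose (70.0%, against 9.79% of all genes) and none fell by edgeR (median log2 fold change 1.02), opposite to *Tcf4*. *Siglech*, their surface lectin, rose from 56.8 ± 4.19 to 270 ± 32.3 normalized counts (2.23, adjusted p = 2.10e-07), and *Klk1*, *Lifr*, *Runx2*, *Pacsin1* and *Cox6a2* rose too. The markers together summed to 4475 to 5650 in Ahr+/+ and 5462 to 7555 in Ahr-/- libraries, and none of the 10 was at 0 in all libraries. Most of each sum came from *Bst2*, *Pacsin1* and *Irf7*, so it does not follow markers as low as *Siglech*. Their means were 2127, 1248 and 1128 normalized counts in Ahr+/+ and 2498, 1685 and 1028 in Ahr-/- cells. *Bst2* and *Irf7* were not called (edgeR adjusted p = 0.233 and 0.687).

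Conventional dendritic cells and NK and innate lymphoid cells are rich in *Id2*, which was also higher. Of 9 conventional dendritic cell markers 6 were called (66.7%, against 17.9% of all genes). *Cd209a*, *Clec9a*, *Clec10a*, *Itgax* and *Dpp4* rose by 2.52, 1.86, 1.83, 1.06 and 0.73 on the log2 scale. *Zbtb46*, the transcription factor that defines these cells, fell from 552 ± 23.9 to 418 ± 23.2 normalized counts (-0.40, edgeR adjusted p = 0.00143), and *Flt3* and *Xcr1* had log2 fold changes of -0.20 and -0.26 that did not pass the test. The sums ran from 1062 to 1259 in Ahr+/+ and from 1295 to 1548 in Ahr-/- libraries. Of 9 NK and innate lymphoid markers 3 were called (33.3%), and *Gzmb*, *Klrb1c* and *Ncr1* rose by 1.02, 0.92 and 0.98 (edgeR adjusted p = 8.24e-04, 0.0283 and 0.0492), with sums of 546 to 760 and 691 to 1127. The number called among these 9 was 1 without Ahr+/+ replicate 1, Ahr+/+ replicate 3, Ahr-/- replicate 1 or Ahr-/- replicate 2, and 5 without Ahr-/- replicate 3. B cell markers summed to 84194 to 88289 and 97617 to 102240, and 4 of 8 rose (against 9.79% of all genes), *Pax5*, *Cd79b*, *Ms4a1* and *Cd79a*.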

How the data were processed

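Stranded mRNA-seq of splenic B cells was analysed for 3 Ahr+/+ and 3 Ahr-/- mice. The submitters' processing notes name TopHat2, HTSeq, DESeq and the build mm10, with no order given. The values are read counts per gene. The deposited raw counts were used. Normalized counts and DESeq comparisons (fold changes, p-values) that were also deposited were not used. Whether counting used strand was not given in the sources used here.

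Genes whose counts summed to 10 or more over the libraries were normalized by TMM and tested with edgeR 4.0.16 (quasi-likelihood, R 4.3.3) without covariates. Normalized counts are CPM scaled to the mean effective library size. P-values measure the spread between 3 mice per genotype, and floors cover counting error only. Scripts were tested on simulated data.

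The 6 genes and the lists were chosen with earlier results of these data known. Named from each list were called genes, at most 6 by lowest p, plus other calls where a direction had 5 or fewer and defining markers, and for each called member the 3 nearest patterns among genes with a mean CPM of at least 1 (prior count 2). A few genes that the rule names are not reported here. Where genes outside this rule are named, they were chosen after their values were seen. Lengths came from GENCODE and positions from RefSeq, which placed 13591 of 13682 tested genes. Alternatives were other scalings, filters and thresholds, DESeq2 1.42.0, a replicate block, and leaving out each library.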

Additional observations from a re-analysis of the deposited data

How the results depend on the processing

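Across 12 alternatives each, *Id3*, *Tcf4* and *Id2* kept their direction and stayed called, and *Tcf12* and *Id1* stayed uncalled. *Tcf3* was called with library size alone (log2 fold change 0.15, edgeR adjusted p = 0.029), and with single libraries left out it ranged from 0.091 to 0.151, called without Ahr+/+ replicate 2. At an adjusted p under 0.01, 1473 genes were called in place of 2453, 690 of them lower, with 5 of the BMP and TGF-beta group, 1 of the NK and innate lymphoid markers and 1 of the monocyte, macrophage and neutrophil markers. With single libraries left out, calls in these groups came to 5 to 8, 1 to 5 and 1 to 5, those in the turnover group to 0 to 1, and those over all genes to 1664 to 2601. The lowest was without Ahr-/- replicate 2, when 1640 of the 1664 were among those called with all libraries. DESeq2 called 1 turnover gene in place of 0. Library size alone moved the lower share of calls from 45.4 to 36.2%. The ID to E protein quotient of 0.614 was 0.564 with all exons as the length, an alternative added after seeing the data, and 0.756 without length. Replicate numbers are shared by the genotypes, but deviations of same-numbered libraries correlated at -0.145, 0.241 and -0.18, so no pairing was shown. With a replicate block, 2304 genes were called, 3 of the 6 among them. The cause of these shifts was not tested. Depth limits *Id1* above all, with 13 to 28 counts per library.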

Other observations

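Markers of B cell subsets differed between the genotypes in both directions. Of 6 marginal zone markers 2 rose and 2 fell (66.7% called, against 17.9% of all genes), and *Dtx1*, a regulator of Notch signalling, fell from 10628 ± 703 to 3156 ± 206 normalized counts (log2 fold change -1.75, edgeR adjusted p = 7.00e-10). *Cd9*, a tetraspanin, fell by 1.17 (adjusted p = 6.24e-06), while *S1pr3* rose by 0.42 and *Cr2* by 0.25 (adjusted p = 0.00192 and 0.0434). Of 4 follicular markers *Fcer2a* and *Cxcr5* rose and *Klf2* fell (75.0% called), and of 4 transitional markers *Atp1b1* and *Vpreb3* rose and *Cd93* and *Cd24a* fell, so that each of the 4 was called. Of 5 plasma cell markers *Prdm1* and *Igj* fell and *Xbp1* rose (60.0% called). These groups hold few genes.

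Among T cell, monocyte, macrophage and neutrophil, and erythroid markers, smaller shares were called than among the B cell subset markers above. This difference between groups was not tested. Of 9 T cell markers *Cd3e* fell (11.1% called, against 17.9% of all genes), and of 8 monocyte, macrophage and neutrophil markers 2 were called, *Cd14*, which rose, and *Emr1*, which fell from 650 ± 14.7 to 54.1 ± 16.1 normalized counts (edgeR adjusted p = 2.90e-09). The number called among these 8 was 1 without Ahr+/+ replicate 1, Ahr+/+ replicate 3, Ahr-/- replicate 1 or Ahr-/- replicate 2, and 5 without Ahr-/- replicate 3. Of 4 tested erythroid markers edgeR called 0 (against 17.9% of all genes), with 0 at an unadjusted p under 0.05.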
